A study of Oryza sativa with 6 samples.

Results

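Genes for ribosomal proteins and translation factors were followed in developing rice seeds in which *OsMADS29* was silenced. Members were taken by name from the probe sets that the array annotation pairs with a lone gene. A gene was kept where its symbol or a synonym, with or without the prefix Os, was RPL or RPS followed by a number, or the name of a eukaryotic initiation or elongation factor. This gave 29 genes of the 17905 with a probe set of their own, namely 21 for cytosolic ribosomal proteins (10 of the large and 11 of the small subunit) and 8 for translation factors (6 initiation and 2 elongation factors). No poly(A)-binding protein gene matched. A further 4 names were taken as those of ribosomal proteins of organelles and kept apart. *RPL18* and *RPL27* are plastid names by their synonyms, while *rpl5* and *rps14* were taken as mitochondrial from their lower-case names. No synonym of *rpl5* says so, and the lower-case *rps20* was kept among the 21. On the array, 7 matching gene names had no probe set of their own. Most rice genes for ribosomal proteins carry only a locus number in these tables, so the 21 are the named genes and not the whole ribosome.

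Seeds were sampled at stage S3, 5 to 10 days after pollination, from PB1 plants carrying an RNA interference construct against the MADS-box gene *OsMADS29* (MADS29_KD, 3 arrays), and the controls were wild-type PB1 seeds of the same stage (WT, 3 arrays). PB1 is an indica rice variety. The labels do not tell which transgenic line or plant each MADS29_KD array came from, nor the promoter of the construct, so the p-values cover the spread among these arrays only, whatever its source. Whole seeds hold endosperm, embryo and maternal layers in 1 extract, in which fewer cells of a type and less RNA per cell cannot be told apart.

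The cytosolic ribosome is built from ribosomal RNA and a large set of proteins, each of which is needed in matched amounts, and many plants keep several near-identical gene copies for each protein. Initiation factors bring the small subunit to the capped end of a messenger RNA: eIF4E binds the cap, eIF4G is the scaffold of the complex, the helicase eIF4A opens the leader and eIF3 bridges to the small subunit. Elongation factor EF-1 then delivers aminoacyl-tRNAs to the ribosome, with the alpha subunit carrying the tRNA and the beta subunit recycling its bound nucleotide. In cereal seeds, genes of this group are active in dividing and growing tissue and in endosperm that makes storage protein.

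The silenced gene was checked first. The single probe set of *OsMADS29* gave 5.17, 5.11 and 4.90 in MADS29_KD, against 7.16, 6.60 and 7.30 in WT (log2 signal, as are all levels below). The groups did not overlap. The log2 difference, MADS29_KD minus WT, was −1.96 ± 0.21 (SE, n = 3 each), or 25.7% of the WT signal, with a limma adjusted p of 0.00725. An exact permutation of the 6 arrays (two-sided) gave p = 0.10, the lowest value that groups of 3 allow. The number of arrays limits the precision of all values here.

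Ribosomal protein genes were lower in MADS29_KD seeds. At an adjusted p under 0.05 (limma, adjusted over 57194 probe sets), 17 of the 21 fell, 0 rose and 4 were not called, so 81.0% were called lower. At an unadjusted p under 0.05, 19 were lower and 0 higher, but the share over all genes at that threshold was not taken. The next shares are for the adjusted p. Over all tested probe sets, 6.28% of probe sets were called lower and 5.07% higher. Among the 11297 genes whose brightest probe set was above the array's background on all 6 arrays, 20.0% were called lower and 15.6% higher, and among the 351 of them with a mean signal of 10 or more, where 19 of the 21 lie, 37.6% were lower and 21.7% higher. All 29 members were above background on 6 arrays. The median log2 difference of the 21 was −0.64 (1.56-fold lower) with a range of −1.18 to −0.35, beside −0.06 over the genes above background and −0.24 over those at 10 or more.

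All 21 differences were below 0, and in 20 genes every MADS29_KD array lay under every WT array, a separation that 34.4% of the genes above background showed. The changes were mostly modest: 2 of the 21 (*RPL11* and *RPS10-1*) were called and at least 2-fold lower, where 8.00% of the genes above background were. *RPL11* kept its call whichever array was left out. *RPS10-1*, with the lowest mean signal of the 21 (5.91), lost it in 5 of 6 such fits (limma adjusted p up to 0.127). The study named translation among the gene classes that were lower in these same arrays, so the count of genes called lower is not independent of that. Leaving out MADS29_KD replicate 2 or WT replicate 3 left 5 genes called lower, leaving out WT replicate 1 left 6 and leaving out MADS29_KD replicate 3 left 9, while 4 genes stayed called whichever array was left out. Quantile normalization gave 11 genes called lower.

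**Figure D1:**
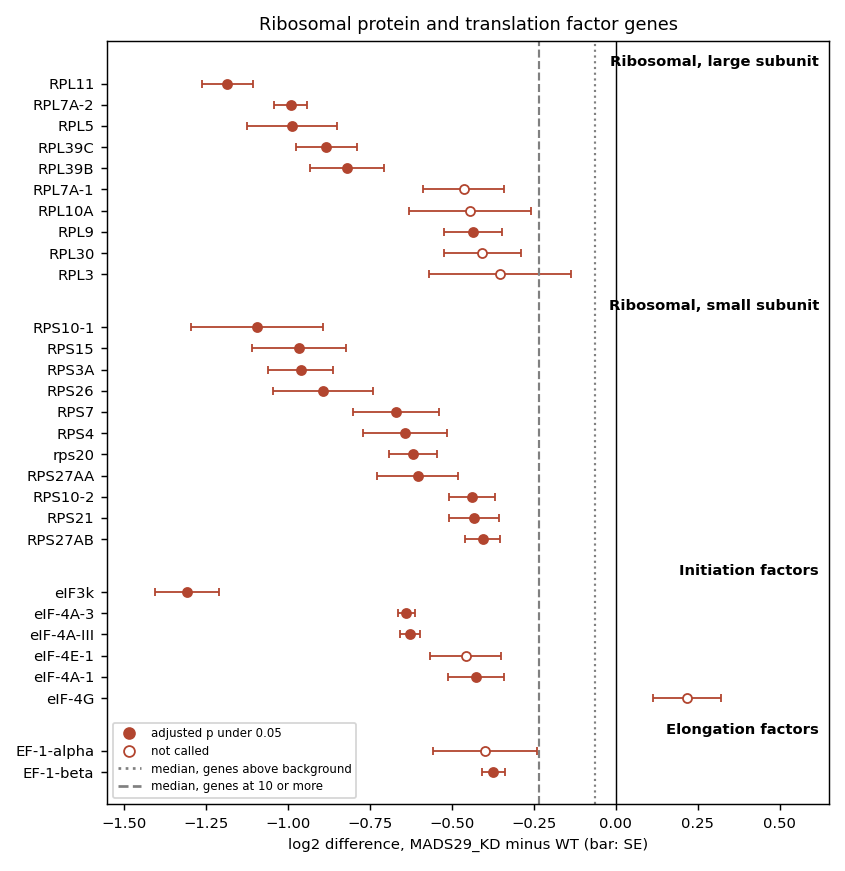
Log2 difference between MADS29_KD and WT (x axis, MADS29_KD minus WT, bars are the SE of the fit, n = 3 arrays a group) for 29 genes, listed by role. Filled points passed an adjusted p under 0.05, and the dotted and dashed lines mark the medians of genes above background (−0.06) and of genes with a mean of 10 or more (−0.24). All points except *eIF-4G* lie left of 0.

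**Figure D2:**
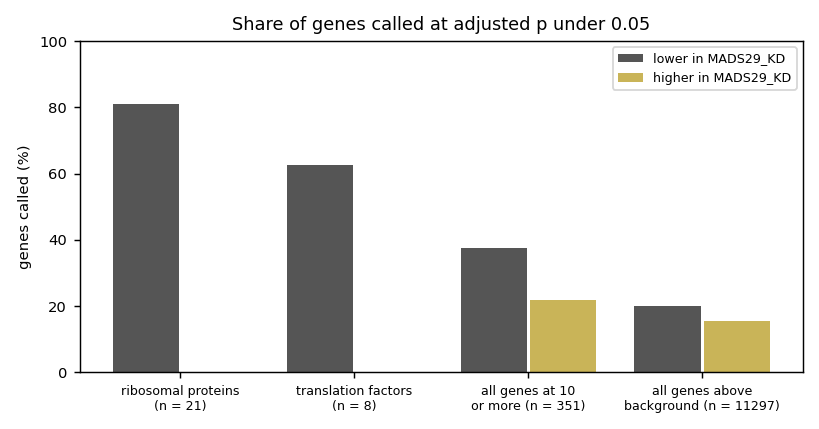
Percentage of genes (y axis) called lower (dark bars) or higher (light bars) in MADS29_KD at an adjusted p under 0.05, for the 21 ribosomal protein genes, the 8 translation factor genes, all 351 genes with a mean of 10 or more and all 11297 genes above background. The bars for lower stand at 81.0%, 62.5%, 37.6% and 20.0%, and both member groups have 0 genes called higher.

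Among genes of the large subunit, 6 of 10 fell and 4 were not called, with a median log2 difference of −0.64. *RPL11* (gene ID 4338077), whose protein joins RPL5 and the 5S ribosomal RNA in a particle that docks onto the large subunit, gave 9.71, 9.62 and 9.85 in MADS29_KD, against 10.85, 11.01 and 10.87 in WT. The arrays of a group lay close together and the groups stood a full log2 unit apart at their nearest values. *RPL11* averaged 9.73 ± 0.12 in MADS29_KD and 10.91 ± 0.09 in WT (SD, n = 3 each), a log2 difference of −1.18 ± 0.08 (SE) or 44.0% of WT, with a limma adjusted p of 0.00176. It stayed called without any array in turn, with differences between −1.25 and −1.13. Its partner *RPL5* (gene ID 4325100) fell too, by 0.99 on the log2 scale (SE 0.14, limma adjusted p = 0.0157), to 9.88 ± 0.24 in MADS29_KD, against 10.87 ± 0.11 in WT (SD, n = 3 each). The *RPL5* call was lost without MADS29_KD replicate 2 (adjusted p = 0.0653), WT replicate 1 (0.0694) or WT replicate 3 (0.0733).

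*RPL7A-2* (gene ID 4347522), a copy of the gene for RPL7A on the outer side of the large subunit, had the smallest adjusted p of the ribosomal genes. Its signals were 9.93, 9.77 and 9.82 in MADS29_KD, against 10.85, 10.85 and 10.78 in WT. The WT arrays were nearly equal, and the gap between the groups was 0.85. The gene averaged 9.84 ± 0.08 in MADS29_KD and 10.83 ± 0.04 in WT (SD, n = 3 each), with a log2 difference of −0.99 ± 0.05 (SE), 50.3% of WT and a limma adjusted p of 0.000905. It kept its call in every alternative fit, that with the replicate number as a block included.

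*RPL39C* (gene ID 9268459), for a very small protein at the exit tunnel, gave 8.64, 8.58 and 8.60 in MADS29_KD, against 9.32, 9.67 and 9.46 in WT. Here WT replicate 2 was the highest array, and the MADS29_KD arrays lay within 0.06 of each other. Its log2 difference was −0.88 ± 0.09 (SE, limma adjusted p = 0.00683), and that of its relative *RPL39B* was −0.82 ± 0.11 (SE, limma adjusted p = 0.0147).

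*RPL9*, the remaining called gene of the large subunit, stood at the edge of the call with −0.43 ± 0.09 (SE, limma adjusted p = 0.0468) and lost it whichever array was left out (adjusted p of 0.0543 to 0.145). The 4 large-subunit genes that were not called had values between −0.46 and −0.35. *RPL3*, for a protein near the peptidyl transferase centre, gave 10.33, 10.82 and 10.52 in MADS29_KD, against 11.09, 10.54 and 11.09 in WT. It was the only ribosomal gene whose groups overlapped, because WT replicate 2 stood 0.55 below the other WT arrays. Its difference, the smallest of the 21, was −0.35 ± 0.22 (SE, limma adjusted p = 0.28). *RPL30* gave 10.34, 10.22 and 10.21 in MADS29_KD, against 10.48, 10.89 and 10.62 in WT, where the WT arrays were spread over 0.41 and the groups lay 0.14 apart. Its difference was −0.41 ± 0.12 (SE, limma adjusted p = 0.107). *RPL7A-1* (−0.46, adjusted p = 0.0913) and *RPL10A* (−0.45, adjusted p = 0.189) were likewise separated between the groups but not called.

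All 11 small-subunit genes were called lower, where 20.0% of the genes above background were, and 37.6% of those at 10 or more. Most of these calls depended on single arrays, as given below. The median log2 difference was −0.64, with a range of −1.09 to −0.41. The difference in calls between the subunits was not tested, and their medians were the same to the second decimal. *RPS3A* (gene ID 4331966), known in rice cells as the cyc07 gene of dividing cells, gave 10.77, 10.64 and 10.54 in MADS29_KD, against 11.52, 11.77 and 11.53 in WT. The groups were 0.75 apart. The log2 difference of *RPS3A* was −0.96 ± 0.10 (SE), 51.4% of WT, with a limma adjusted p of 0.00627, and no left-out array ended the call. For *rps20* (gene ID 4340027) the signals were 10.28, 10.47 and 10.52 in MADS29_KD, against 10.98, 11.09 and 11.06 in WT. The groups were 0.46 apart, and the log2 difference was −0.62 ± 0.07 (SE, limma adjusted p = 0.00941), with the call lost in 1 of 6 fits that left out an array. The brightest member of all, *RPS21*, gave 12.39, 12.25 and 12.35 in MADS29_KD, against 12.70, 12.90 and 12.69 in WT, a log2 difference of −0.43 ± 0.08 (SE, limma adjusted p = 0.0307). Brightness here belongs to the probe set, and signals of different probe sets are not compared as amounts of RNA.

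The 2 genes for ubiquitin fused to RPS27A, whose product is cut into free ubiquitin and a small-subunit protein, were both lower. *RPS27AB* had 10.87, 10.83 and 10.93 in MADS29_KD, against 11.27, 11.20 and 11.38 in WT, and its difference of −0.41 ± 0.05 (SE, limma adjusted p = 0.0129) was the smallest of the called ribosomal genes. *RPS27AA* differed by −0.60 ± 0.12 (SE, limma adjusted p = 0.0474). In *RPS27AA*, as in *RPS4* (−0.64, adjusted p = 0.0428), WT replicate 2 stood above the other WT arrays by at least 0.38. The remaining small-subunit genes were *RPS10-1* (−1.09, adjusted p = 0.0354), *RPS15* (−0.97, adjusted p = 0.0189), *RPS26* (−0.89, adjusted p = 0.0287), *RPS7* (−0.67, adjusted p = 0.0415) and *RPS10-2* (−0.44, adjusted p = 0.023). Of the 17 called ribosomal genes, 13 lost the call when at least 1 of the 6 arrays was left out, and the 4 that kept it were *RPL7A-2*, *RPL11*, *RPS3A* and *RPL39C*. For *RPS4*, *RPS7*, *RPS10-1*, *RPS10-2*, *RPS21* and *RPS27AA* the call was lost in 5 of the 6 such fits, and for *RPS15* and *RPS26* in 4.

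Translation factor genes were lower as well, by less at the median. Of 8 genes, 5 fell, 0 rose and 3 were not called, where 20.0% of the genes above background were called lower and 15.6% higher. At an unadjusted p under 0.05, 6 were lower and 0 higher, again without a share over all genes. The median log2 difference was −0.44 (1.36-fold lower) with a range of −1.31 to 0.22. Of the 8, 3 had a mean signal of 10 or more, against 19 of the 21 ribosomal genes. Over all genes the median was −0.24 at 10 or more and −0.06 above background. The comparison of the class medians does not allow for this. In 7 of the 8 every MADS29_KD array lay under every WT array, which 34.4% of the genes above background showed. For *EF-1-alpha*, counted among the 7, the groups were only 0.0006 apart. Called and at least 2-fold lower was 1 of the 8, beside 8.00% of the genes above background. The range of the ribosomal genes lay inside that of the factor genes. The gap between the medians was not tested, since the members were not drawn at random and are not replicates.

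Among the genes named as initiation factors, *eIF-4A-III* included, 4 of 6 fell, with a median of −0.54. *eIF3k* (gene ID 4331842), a small subunit of the eIF3 complex, had the largest difference of all 29 genes. It gave 7.50, 7.45 and 7.42 in MADS29_KD, against 8.70, 8.96 and 8.62 in WT. The MADS29_KD arrays agreed within 0.09 and the groups were 1.12 apart. *eIF3k* averaged 7.46 ± 0.04 in MADS29_KD and 8.76 ± 0.18 in WT (SD, n = 3 each), which is a log2 difference of −1.31 ± 0.10 (SE) and 40.4% of WT, with a limma adjusted p of 0.00248.

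The eIF4A helicases were all lower, and the signals of *eIF-4A-3* and *eIF-4A-III* had very little spread. *eIF-4A-3* (gene ID 4328286) had 8.38, 8.45 and 8.40 in MADS29_KD, against 9.07, 9.01 and 9.07 in WT, a log2 difference of −0.64 ± 0.03 (SE, limma adjusted p = 0.000545). *eIF-4A-III* (gene ID 4333273), a relative that sits in the exon junction complex on spliced RNA and is not a general initiation factor, had 8.12, 8.05 and 8.07 in MADS29_KD, against 8.66, 8.75 and 8.72 in WT. Its log2 difference was −0.63 ± 0.03 (SE, limma adjusted p = 0.000879). In both genes the arrays of a group lay within 0.09 of each other, and with *eIF3k* and *RPL7A-2* they kept their call in all alternative fits. *eIF-4A-1* (gene ID 4341966) gave 10.44, 10.63 and 10.63 in MADS29_KD, against 11.08, 10.86 and 11.03 in WT, and its −0.42 ± 0.09 (SE, limma adjusted p = 0.0447) was lost in 5 of the 6 fits that left out an array.

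The partners of eIF4A at the cap, *eIF-4E-1* and *eIF-4G*, were not called on their brightest probe sets. Another probe set of *eIF-4G* was called higher, as given below. *eIF-4E-1*, the cap-binding protein, averaged 8.94 ± 0.19 in MADS29_KD and 9.40 ± 0.06 in WT (SD, n = 3 each), a log2 difference of −0.46 ± 0.11 (SE, limma adjusted p = 0.0686). *eIF-4G* was the only member with a value above 0. Its brightest probe set gave 7.54, 7.87 and 7.81 in MADS29_KD, against 7.58, 7.42 and 7.57 in WT, where MADS29_KD replicate 1 lay inside the WT range. The difference was 0.22 ± 0.10 (SE, limma adjusted p = 0.219).

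Of the elongation factors, *EF-1-beta* (gene ID 4344188) fell and *EF-1-alpha* (gene ID 4331810) was not called. *EF-1-beta* gave 10.93, 10.95 and 11.02 in MADS29_KD, against 11.31, 11.39 and 11.32 in WT, a small log2 difference of −0.37 ± 0.04 (SE, limma adjusted p = 0.00523) that no left-out array ended. *EF-1-alpha* gave 11.83, 12.09 and 12.06 in MADS29_KD, against 12.54, 12.09 and 12.55 in WT. WT replicate 2 stood level with the 2 higher MADS29_KD arrays, and the remaining WT arrays were clearly above. The log2 difference of *EF-1-alpha*, −0.40 ± 0.16 (SE, limma adjusted p = 0.178), was thus of the same size as that of *EF-1-beta* with a wider error. *EF-1-alpha* was read by a probe set that can bind several transcripts, and its synonyms run from *REFA1* to *REFA4*, so its signal may pool gene copies. The control probe sets that the array names for this factor were under background on every array (3′ set 2.52 to 2.55).

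**Figure D3:**
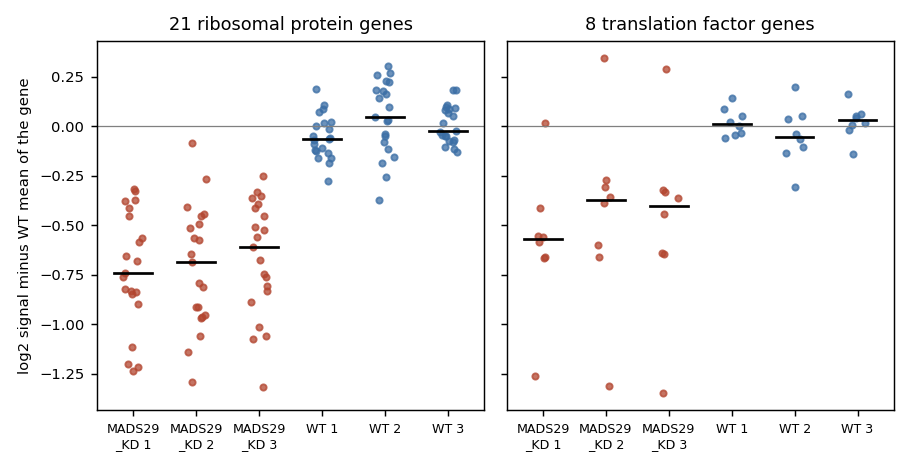
Signal of each gene on each array minus the WT mean of that gene (y axis, log2) for 21 ribosomal protein genes (left) and 8 translation factor genes (right), with MADS29_KD arrays in red and WT arrays in blue. Each point is a gene and black bars are medians, which lie at −0.74, −0.69 and −0.61 on the MADS29_KD arrays and between −0.06 and 0.05 on the WT arrays for the ribosomal genes.

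The shift ran through all 3 MADS29_KD arrays. The median signal of the 21 ribosomal genes was 10.28, 10.24 and 10.26 on the MADS29_KD arrays, against 10.88, 10.85 and 10.96 on the WT arrays, and every one of the 21 was below its WT mean on each MADS29_KD array. For the 8 factors the median was 8.56, 8.79 and 8.68 in MADS29_KD, against 9.24, 9.17 and 9.26 in WT. Within groups the genes did not all follow the same array: MADS29_KD replicate 1 was the highest MADS29_KD array for 9 ribosomal genes and the lowest for 8, and WT replicate 2 was the highest WT array for 12 and the lowest for 7.

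The arrays MADS29_KD replicate 1 and WT replicate 2 also stood apart in control probe sets, with the 5′ end of actin at 2.75 and 2.33, against 5.86 to 6.42 on the other 4 arrays. With this array class as a block, 19 ribosomal genes and 7 factor genes were lower, and *eIF-4G* was called higher (adjusted p = 0.0429). The genes gained as lower were *RPL7A-1*, *RPL10A*, *RPL30*, *EF-1-alpha* and *eIF-4E-1*, and *RPL9* was lost. Within the 4 arrays with alike 5′ signal (2 of each group), *EF-1-alpha* differed by −0.47 (limma adjusted p = 0.00593), *RPL7A-1* by −0.46 (limma adjusted p = 0.0173) and *eIF-4G* by 0.27 (limma adjusted p = 0.0278). In those 4 arrays *RPL10A* was called as well (limma adjusted p = 0.0077), whereas *RPL30* (0.0804) and *eIF-4E-1* (0.0959) were not, and *RPL9* (0.198) and *RPS27AB* (0.0533) lost their calls. The control probe set for 18S ribosomal RNA followed the same arrays, with 2.76, 6.62 and 6.41 in MADS29_KD, against 9.08, 3.62 and 7.45 in WT, and its groups overlapped (exact two-sided permutation p = 0.50). Since its signal went with the array class, it is not read as an amount of ribosomal RNA. The 3′ end of actin gave 10.42, 10.53 and 10.36 in MADS29_KD, against 10.97, 10.90 and 11.05 in WT. It differed by −0.54 without overlap (exact two-sided permutation p = 0.10). The 3′ end of ubiquitin differed by 0.10, with overlap. What these controls say about the scale between the groups was not tested.

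Gene copies of the same protein, or close relatives, were then compared on the same arrays through their log2 ratio, in 5 pairs. *RPL7A-2* fell while *RPL7A-1* did not pass: *RPL7A-1* gave 9.94, 10.18 and 10.26 in MADS29_KD, against 10.69, 10.40 and 10.67 in WT. The ratio of *RPL7A-2* to *RPL7A-1* was −0.00, −0.41 and −0.44 in MADS29_KD, against 0.16, 0.45 and 0.11 in WT, so it was lower on each MADS29_KD array, by 0.53 on average. *RPS10-1* relative to *RPS10-2* was lower by 0.65 and *eIF-4A-3* relative to *eIF-4A-1* by 0.21, again without overlap. For these 3 pairs an exact permutation test (two-sided) gave p = 0.10, the lowest that groups of 3 allow, and 0.167 after adjustment over the 5 pairs, so a difference between copies could not pass. *RPL39B* and *RPL39C* (difference of ratios 0.06, exact permutation p = 0.40) and *RPS27AA* and *RPS27AB* (−0.20, exact permutation p = 0.30) overlapped between groups. *RPL39B* and *RPL39C* were read by probe sets that can bind several transcripts, the kind that read 6 of the 21 ribosomal genes and 1 of the 8 factors in all, so signal may be shared between copies.

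**Figure D4:**
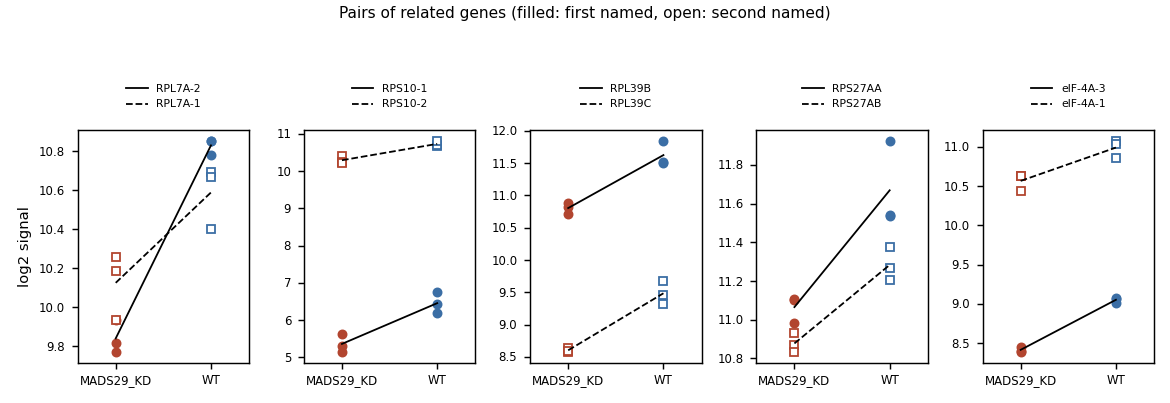
Log2 signal (y axis, scaled for each panel) of 5 pairs of related genes on the 3 MADS29_KD arrays (red, left) and the 3 WT arrays (blue, right). Filled circles and solid lines are the gene named above in each legend, open squares and dashed lines its relative, and lines join group means. Every gene shown has the lower mean in MADS29_KD.

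Other probe sets of the same genes gave a further reading of 8 genes. Of 13 such probe sets above background on all arrays, all 13 had the sign of the brightest one, 3 were called lower, 1 was called higher and 9 were not called. Not every sign was resolved, as in *RPS4* (−0.37 ± 0.40, SE) and *EF-1-alpha* (−0.30 ± 0.30, SE). *rps20* repeated its value (−0.62 ± 0.03, SE, limma adjusted p = 0.000803), as did *RPS3A* (−0.94, adjusted p = 0.0273) and *RPL39B* (−0.88, adjusted p = 0.0149). The probe set called higher belonged to *eIF-4G* and gave 7.85, 7.44 and 7.27 in MADS29_KD, against 6.78, 6.64 and 6.57 in WT, without overlap. Its difference was 0.86 ± 0.17 (SE, limma adjusted p = 0.0416), so the probe sets of this gene differ in size and in call. Its remaining probe sets gave 0.09 ± 0.89 and 0.25 ± 0.38 (SE), too wide to give a sign.

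**Figure D5:**
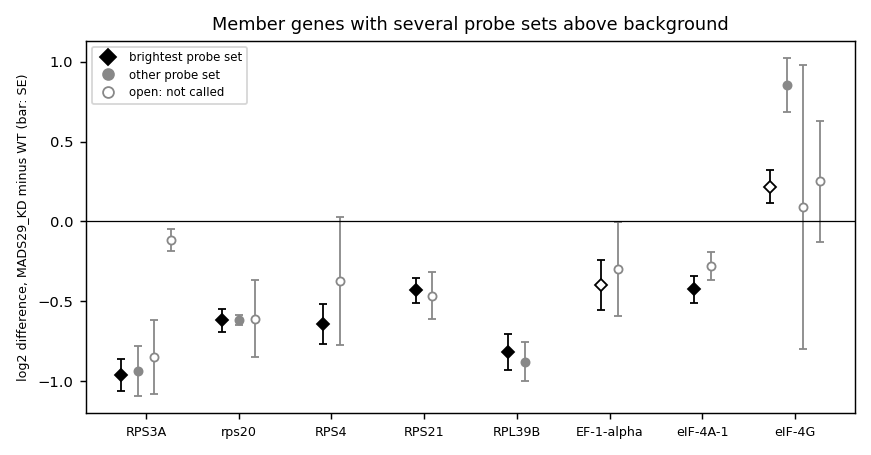
Log2 difference between MADS29_KD and WT (y axis, MADS29_KD minus WT, bars are the SE, n = 3 arrays a group) for each probe set above background in the 8 genes that have several. Black diamonds are the brightest probe set and grey circles the others, filled where the adjusted p was under 0.05. All points of *eIF-4G* lie above 0 and all others below.

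Other genes of protein synthesis were read from short lists of names. All 3 aminoacyl-tRNA synthetase genes, whose products charge tRNAs, fell: *LysRS* by 1.60 on the log2 scale (SE 0.08, limma adjusted p = 0.000997), *HisRS* by 1.34 (SE 0.13, limma adjusted p = 0.005) and *MetRS* by 1.03 (SE 0.15, limma adjusted p = 0.0193). *LysRS* gave 7.12, 6.85 and 6.94 in MADS29_KD, against 8.52, 8.67 and 8.53 in WT, a wide separation. Both genes found for ribosome assembly fell, *PES* (pescadillo, which acts in making the large subunit) by 1.32 (SE 0.20, limma adjusted p = 0.0196) and the RNA helicase gene *TOGR1* by 1.14 (SE 0.23, limma adjusted p = 0.0457). *TOGR1* lost its call whichever array was left out, *MetRS* in 5 of 6 such fits and *PES* in 3 of 6.

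Translation in organelles was covered by 7 genes, a list completed after values were seen, of which 4 fell and 3 were not called. The elongation factor genes *EF-Ts* (−1.73 ± 0.16, SE, limma adjusted p = 0.00491), *EF-4* (−1.44 ± 0.24, SE, limma adjusted p = 0.027) and *EF-Gmt* (−0.89 ± 0.08, SE, limma adjusted p = 0.004) fell, and *EF-4* lost its call in 5 of 6 fits that left out an array. *RPL18* (gene ID 4334651), which carries a chloroplast ribosomal protein name of the large subunit, fell too, with 6.24, 6.32 and 6.65 in MADS29_KD, against 7.50, 7.81 and 7.65 in WT. Its groups were 0.85 apart, and the log2 difference was −1.25 ± 0.14 (SE), 42.1% of WT, with a limma adjusted p of 0.00805 that stayed under 0.05 whichever array was left out. *RPL27*, the other plastid name, was not called (−0.22 ± 0.07, SE, limma adjusted p = 0.129). The genes taken as mitochondrial, *rpl5* (−0.22, adjusted p = 0.416) and *rps14* (−0.15, adjusted p = 0.312), were not called on their brightest probe sets, and both overlapped between groups. Another probe set of the *rps14* gene was called lower, with 5.71, 5.87 and 5.86 in MADS29_KD, against 6.32, 6.43 and 6.33 in WT (−0.55 ± 0.06, SE, limma adjusted p = 0.00704). The names of that gene include *sdhB*, for a succinate dehydrogenase subunit, so its signal is not that of *rps14* alone. *GOS2*, the rice gene for eIF1, was outside the naming rule and chosen after its values were seen. Its brightest probe set was not called (0.30 ± 0.10, SE, limma adjusted p = 0.148), while another rose, with 11.55, 11.80 and 11.77 in MADS29_KD, against 10.59, 10.55 and 10.57 in WT (1.14 ± 0.07, SE, limma adjusted p = 0.00158). Of 10 proteasome genes, which serve protein breakdown, 0 were called by limma, with a median log2 difference of −0.17. At an unadjusted p under 0.05, 6 of them were lower, again without a share over all genes. *LST8* of the TOR pathway was not called (−0.02, adjusted p = 0.84).

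Markers of seed tissues moved with the groups. For comparison, 15.6% of all genes above background were called higher and 20.0% lower. Of 12 endosperm genes (storage proteins and starch synthesis) 7 rose and 0 fell, and their summed signal was 16.61 to 16.65 on the log2 scale in MADS29_KD, against 15.89 to 16.12 in WT. Of 9 embryo and late maturation genes 6 rose and 0 fell, with a summed signal of 12.75 to 12.84 in MADS29_KD, against 8.66 to 8.88 in WT. Such a sum follows the brightest genes of a list: *RAB21* rose by 7.51, while *OSH1* was not called (−0.11, limma adjusted p = 0.262). Only 5 of these 9 genes were above background on all 6 arrays. Among those that rose, *rab25* was above it on 5 arrays and *RAB16B* on 4. Of 6 genes of green outer layers 3 fell and 1 rose, with a summed signal of 12.78 to 12.83 in MADS29_KD, against 13.62 to 13.70 in WT. All 3 anther and pollen markers were at background on all arrays, as was the glutelin gene *GLUB-4*, and no root marker matched by name. The part of these shifts in tissue and stage markers in the lower signal of ribosomal and factor genes was not tested.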

How the data were processed

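Total RNA of seeds, extracted with Trizol per the labels, was labelled with biotin from 500 ng and hybridised to 6 Affymetrix rice genome arrays. The authors deposited linear intensity values, 3.98 to 16101 over 57381 probe sets, while their background correction, normalization and software were not given in the sources used here. Array medians of intensity were 6.05 to 6.18. All fits used log2 of these values with no further scaling. Groups came from the sample labels.

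After 123 AFFX and 64 reporter control probe sets were left out, 57194 probe sets entered 1 linear model (lmFit and eBayes of limma 3.58.1, R 4.3.3, without a block), with Benjamini-Hochberg adjustment over all of them and a call at an adjusted p under 0.05. Signals were compared with background, the 95th percentile of the 64 reporter probe sets on each array (2.81 to 2.98 on the log2 scale). The annotation paired 22436 probe sets with 1 gene, 95 with several (not named) and 34663 with none, and all 17905 genes were found in the RefSeq table of assembly ASM3414082v1, used for names only. Each gene was read from its brightest probe set over the 6 arrays. Exact permutation tests used scipy 1.17.1. The fit was tested on simulated data. Alternatives were other scalings, filters, weights, blocks and leaving out each array.

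The members and lists were chosen with earlier results of these data known. Every member could be named. Names taken as those of mitochondrial ribosomal proteins, and genes whose synonyms hold a chloroplast ribosomal protein name, were set apart, the chloroplast names after their values were seen. Values on each array were given for *RPL11*, *RPL7A-2*, the 5 genes of each class with the smallest adjusted p, the 3 with the smallest difference, the brightest of each class and any called higher, and up to 2 genes a further list were named, *MetRS* and the organelle genes being named after their values were seen. Where the planned lists used gene products, names were used, since the tables hold no products. From the marker lists, endoglucanase genes named *GLU* with a number and the receptor gene *RCAR5* were removed after the match. Sequences and promoters were not analysed here.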

Additional observations from a re-analysis of the deposited data

How the results depend on the processing

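No difference of the 29 genes or of *OsMADS29* turned its sign under any alternative, and 0 ribosomal genes were called higher in any. The count of ribosomal genes called lower (17) was 5 to 12 with each array left out in turn, where fewer samples remain, 11 after quantile normalization and 2 when at least 2-fold was also required. Their median difference (−0.64) was −0.59 after quantile normalization, −0.59 with arrays centred on expressed probe sets, −0.52 in the 4 arrays with alike 5′ actin signal, and −0.72 to −0.58 with each array left out. The count of factor genes called lower (5) was 1 with at least 2-fold, and their median (−0.44) was −0.54 with array weights. With the 5′ actin class as a block, and in the 4 arrays with alike signal, 1 factor gene (*eIF-4G*) was called higher. Over the whole table, 6490 calls became 2596 with at least 2-fold and 3596 to 5475 with each array left out. *OsMADS29* differed by −2.17 to −1.82 with each array left out. The cause of these shifts was not tested.

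The labels do not say whether replicate numbers pair the samples. Deviations of arrays with the same number correlated at −0.55, −0.54 and 0.47. Those of MADS29_KD replicate 1 and WT replicate 2, both with low 5′ actin signal, correlated at 0.69. Since the deviations follow that array class, they cannot decide whether the numbers pair. With the replicate block, 3 ribosomal genes, 3 factor genes and 2140 probe sets were called, and *OsMADS29* kept its difference of −1.96 with an adjusted p of 0.0796. Quantile normalization ended the calls of 7 of the 29 genes. The precision rests on 3 arrays a group, and the scale between groups rests on a normalization that is not known.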
